A study of Mus musculus with 8 samples.

Results

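The transcripts described here are 43 genes of autophagy and the lysosome, chosen by name from a table of 21879 genes measured in mouse C2C12 cells. They comprise the ATG8 family (5 genes), cargo receptors (4), initiation and lipid kinase subunits (7), membrane and conjugation machinery (10), the transcription factors Tfeb and Tfe3, lysosomal hydrolases (7), lysosomal membrane proteins (3), proton pump subunits (3) and vesicle tethering subunits (2). All 43 were in the table and all 43 reached the mean of 1 FPKM asked of a gene before it was tested, as did 11025 genes in all. C2C12 is an established mouse myoblast line whose cells stop dividing and fuse to form myotubes in low serum. Cells received a control siRNA (siNC, 4 libraries) or siRNA against Fam129b (siFAM129B, 4 libraries) by lipid transfection, and muscle differentiation is the labelled treatment of both groups. Per the labels' protocols the cells were grown in 10% fetal bovine serum and differentiated in 2% horse serum. How long the cells differentiated, and which siRNA sequences were used, is not given in the sources used here. According to the series design, the aim was to learn what Fam129b, a cytoplasmic protein of the Niban family, does in muscle atrophy, and autophagy with lysosomal proteolysis is a main route of protein loss in wasting muscle.

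In autophagy a cup-shaped membrane grows around cytoplasm, closes, and fuses with a lysosome, where acid hydrolases digest the contents. Starvation or loss of mTORC1 activity switches on the Ulk kinase complex and then the Becn1 and Pik3c3 lipid kinase, after which ATG8 proteins are attached to the growing membrane and bind cargo receptors such as Sqstm1. Tfeb and Tfe3 enter the nucleus under the same conditions and activate genes of lysosomes and autophagy, and in wasting muscle FoxO factors activate several ATG8 and Bnip3 genes. The transcript level does not measure autophagic flux, which is set largely by protein modification and by the rate of lysosomal breakdown.

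Values are FPKM, reads scaled by gene length and library total, so that levels may be compared between genes. The whole reads recovered from these values came to between 31466869 and 36031688 per library. Fam129b was lower in every siFAM129B library, at 91.6, 87.0, 87.3 and 128 FPKM in libraries 1 to 4, than in the siNC libraries, at 154, 163, 179 and 175 FPKM (exact two-sided permutation p = 0.0286, the smallest that 4 against 4 can give). In limma its log2 difference of -0.78 did not pass with all 8 libraries (adjusted p = 0.784), and -0.91 passed without siFAM129B library 4 (adjusted p = 0.00176). siFAM129B library 4 stood apart: 77.6% of all tested genes had their highest or lowest value there, against 10.6% to 31.7% in the other libraries, and its values for all genes summed to 470385 FPKM, against 391336 to 398292. Results are therefore given with and without it. The 6 myoblast markers Myod1, Myf5, Des, Cdh15, Itga7 and Pax7 were detected in every library and summed to between 399 and 564 FPKM in siNC and between 417 and 598 FPKM in siFAM129B, with Des the largest contributor. None passed in limma. Myod1, Des and Itga7 had log2 differences of 0.13, 0.10 and 0.12, and Cdh15 and Pax7 -0.01 and -0.10. Myf5 had the largest, -0.53 ± 0.27 (SE; -0.24 ± 0.14 without siFAM129B library 4), at 15.3, 16.7, 11.1 and 11.7 FPKM in siNC and 12.1, 11.7, 10.2 and 4.50 FPKM in siFAM129B. The part of these markers in the results below was not tested. Macrophages, which are rich in lysosomes, were represented by 8 markers that summed to between 16.7 and 20.04 FPKM in siNC and between 17.3 and 21.1 FPKM in siFAM129B. Adgre1, Itgam and Tyrobp were listed at 0 in all 8 libraries, Ptprc reached at most 0.0247 FPKM, and most of the sum came from Cd14. The 4 endothelial markers summed to at most 0.345 FPKM.

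None of the 43 genes passed an adjusted p of 0.05, in either direction, in limma on log2(FPKM + 1), and 0% of all tested genes did so. Without siFAM129B library 4 none of the 43 passed either, and 0.00907% of all tested genes did, the 1 gene being Fam129b, which was lower. The smallest adjusted p among the 43 was 0.784 with all 8 libraries and 0.87 without siFAM129B library 4. Of the 43, 1 gene, Tfeb, had an unadjusted limma p under 0.05, as did 2.49% of all tested genes in either direction and 1.78% with siFAM129B higher. Without siFAM129B library 4 there were 2, Tfeb and Gabarapl1, beside 4.31% of all tested genes in either direction and 2.59% with siFAM129B higher; both genes were higher. Run on recovered reads, limma voom called 0 of the 43 and 0% of all tested genes, with 1 of the 43 and 2.3% of all tested genes at an unadjusted p under 0.05. Whether replicates are separate cultures is not in the labels, so these p-values measure only the spread between the samples, which may be technical. In bulk samples fewer cells of a kind and less RNA per cell cannot be told apart.

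The differences were small and leaned upward with all 8 libraries. The median log2 difference, siFAM129B minus siNC, was 0.09 over the 43 genes and 0.00 over all tested genes, and 32 of the 43 lay above 0 against 50.6% of all tested genes. Without siFAM129B library 4 the median was 0.04, and 28 of the 43 lay above 0 against 50.7%. The sign of the difference changed for 14 of the 43 when that library was left out. Library by library, the median of the 43 relative to the siNC mean was 0.02, 0.03, 0.00 and -0.07 in siNC libraries 1 to 4, and 0.04, 0.06, 0.01 and 0.20 in siFAM129B libraries 1 to 4. siFAM129B library 3 lay inside the siNC range, libraries 1 and 2 slightly above it, and library 4 furthest above. In siNC library 4, 19 of the 43 had their lowest value of all 8 libraries, beside 16.6% of all tested genes. There 3 had their highest, beside 15.1%. With every library rescaled to an equal sum, 25 of the 43 lay above 0, against 37.0% of all tested genes.

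**Figure D1:**
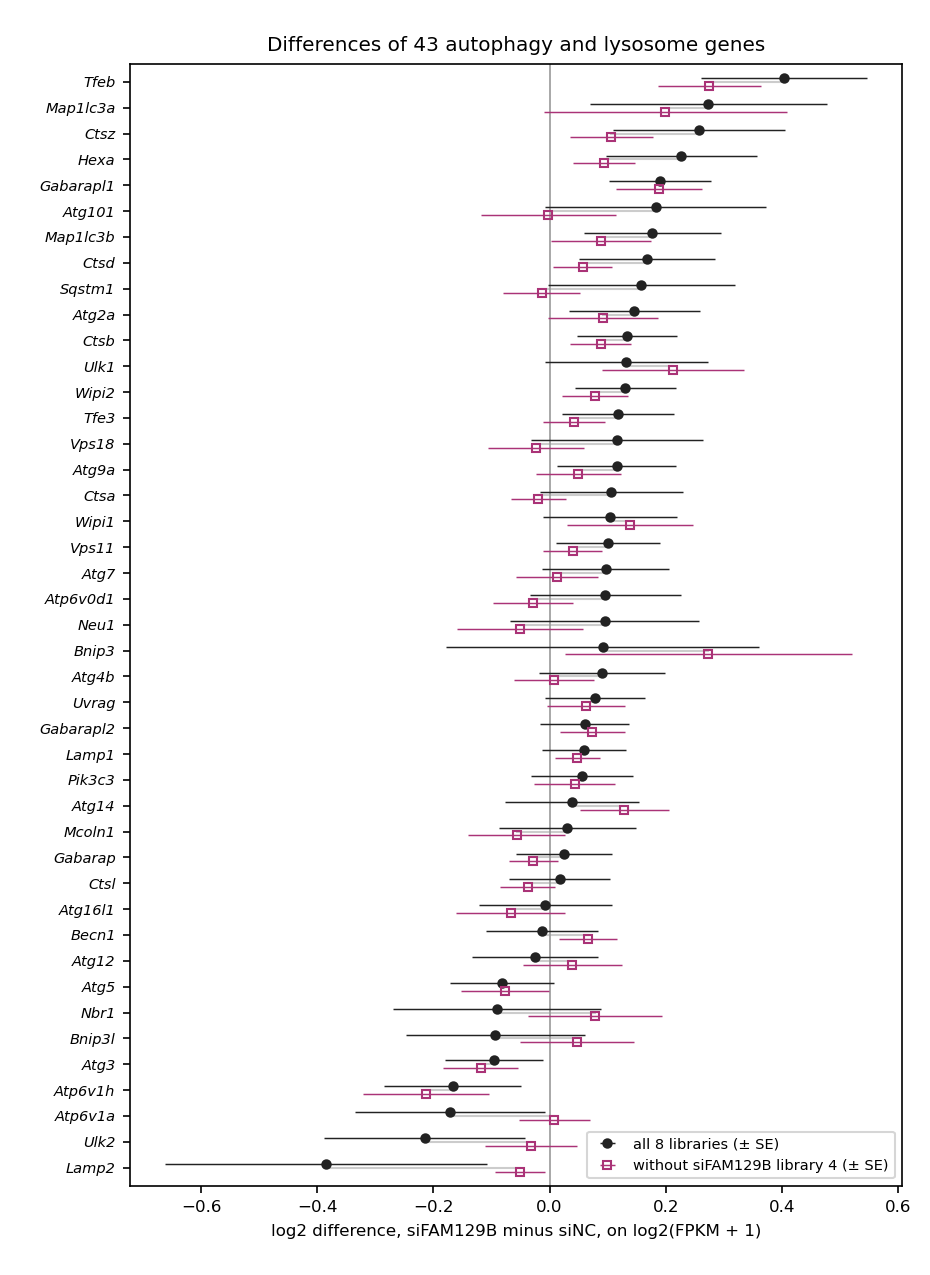
Log2 difference on log2(FPKM + 1), siFAM129B minus siNC, of each of the 43 genes, ordered by the value from all 8 libraries (filled circles) and shown beside the value without siFAM129B library 4 (open squares); bars are standard errors from limma. The open squares lie closer to 0 than the circles for most genes, and Tfeb is at the top in both fits, at 0.40 and 0.28.

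The groups did not overlap for 2 of the 43 genes, Tfeb and Lamp1, both with every siFAM129B library above every siNC library. Over all tested genes 1.9% showed that pattern in the same direction, and 3.26% did so without siFAM129B library 4, where the 2 genes were again Tfeb and Lamp1. No member showed the opposite pattern, which 1.46% of all tested genes did with all 8 libraries and 2.58% without library 4. In either direction the shares of all tested genes were 3.37% and 5.83%.

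Levels differed far more between genes than between groups. In siNC the most abundant were Lamp1 at 352 ± 6.98 FPKM (SD, n = 4), Ctsl at 319 ± 13.5, Ctsb at 313 ± 15.02, Sqstm1 at 307 ± 23.7 and Ctsd at 270.1 ± 13.6. The neighbours from Ctsl to Sqstm1 did not differ beyond their spread. At the other end stood Atg14 at 4.39 ± 0.36, Neu1 at 4.37 ± 0.676 and Tfeb at 5.25 ± 0.233 FPKM. The median level over 8 libraries was 108 FPKM for the hydrolases, 56.0 FPKM for the ATG8 family and 52.8 FPKM for the cargo receptors, against 16.0 FPKM for the initiation and lipid kinase genes and 19.6 FPKM for the membrane and conjugation genes. Behind the lowest values stood at least 384 reads per library for Tfeb and 405 for Atg14, a counting error of 5.10% and 4.97%, and for Lamp1 at least 25288 reads. These errors cover counting only.

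**Figure D2:**
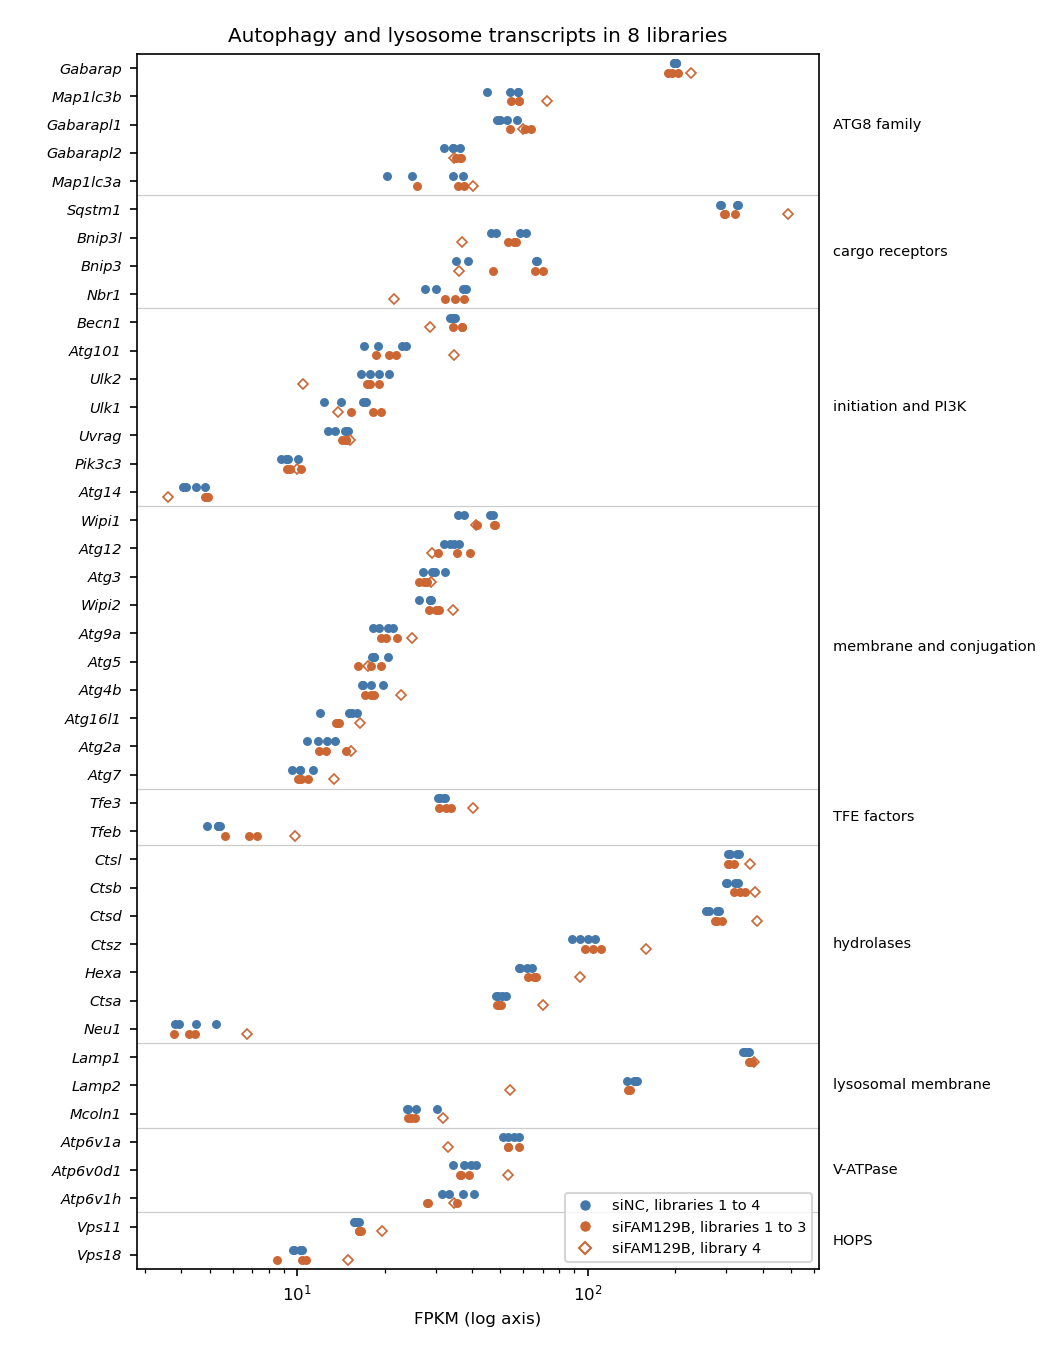
FPKM of the 43 genes in each library (logarithmic axis), grouped by role; blue circles are siNC, orange circles siFAM129B libraries 1 to 3, and open diamonds siFAM129B library 4. The hydrolases and membrane proteins lie to the right and the initiation genes to the left; the open diamond is apart from the other points for many genes, furthest for Lamp2, at 54.2 FPKM against 137 to 148 FPKM in the other libraries.

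Tfeb, the master regulator of lysosomal genes, had the largest difference of the 43. It stood at 5.36, 5.34, 5.41 and 4.91 FPKM in siNC libraries 1 to 4, and at 7.28, 6.85, 5.66 and 9.81 FPKM in siFAM129B libraries 1 to 4. The siNC values lay close together, siFAM129B library 3 was barely above them, and library 4 was the highest of all. The log2 difference was 0.40 ± 0.14 (SE; limma, unadjusted p = 0.0191, adjusted p = 0.784), and without library 4 it was 0.28 ± 0.09 (limma, unadjusted p = 0.0131, adjusted p = 0.87). In levels, 7.40 ± 1.75 FPKM with siFAM129B stood against 5.25 ± 0.233 FPKM with siNC (SD, n = 4 each). With trends on gene length and GC content removed from each library, the difference was 0.24 and the adjusted p 0.98 in limma.

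Tfe3, the close relative that shares much of the Tfeb programme, was more abundant. Its siNC values of 31.1, 32.2, 32.0 and 30.5 FPKM overlapped the siFAM129B values of 34.0, 32.5, 30.8 and 40.2 FPKM. The log2 difference was 0.12 ± 0.10 (SE; limma adjusted p = 0.784) and 0.04 ± 0.05 without library 4.

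Tfeb and Tfe3 bind a palindromic sequence, TCACGTGA, in the promoters of lysosomal and autophagy genes, and promoters of the 43 that hold it are shown for that reason. RefSeq promoter windows (assembly GRCm38.p6, from 250 bases before to 50 bases after the gene's start) were matched by symbol for 34 of the 43. TCACGTGA, which reads the same on both strands, was in a window of 6 of the 34 genes (17.6%) and of 1.12% of the 27025 genes with a window. The core CACGTG, which every TCACGTGA contains, was in 12 of the 34 (35.3%) and in 8.09% of all. The windows of the 4 genes with the smallest limma p among the 6 follow, 5′ to 3′ on the strand of the gene, with TCACGTGA in capitals. They lie at chr7:142387778-142388077 (minus strand) for Ctsd, chr16:45158579-45158878 (plus strand) for Atg3, chr16:44139210-44139509 (minus strand) for Atp6v1a and chr2:164833523-164833822 (plus strand) for Ctsa.
Ctsd: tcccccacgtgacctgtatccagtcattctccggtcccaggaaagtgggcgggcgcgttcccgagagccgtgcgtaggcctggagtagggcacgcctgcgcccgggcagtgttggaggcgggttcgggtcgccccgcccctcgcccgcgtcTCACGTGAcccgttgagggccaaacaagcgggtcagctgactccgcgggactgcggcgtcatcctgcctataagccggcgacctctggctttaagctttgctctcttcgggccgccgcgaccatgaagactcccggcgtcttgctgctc
Atg3: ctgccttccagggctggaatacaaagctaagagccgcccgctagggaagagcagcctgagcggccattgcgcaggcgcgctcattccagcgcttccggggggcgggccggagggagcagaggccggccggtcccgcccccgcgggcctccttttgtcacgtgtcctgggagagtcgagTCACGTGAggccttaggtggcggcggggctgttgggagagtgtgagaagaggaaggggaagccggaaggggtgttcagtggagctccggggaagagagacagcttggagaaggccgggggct
Atp6v1a: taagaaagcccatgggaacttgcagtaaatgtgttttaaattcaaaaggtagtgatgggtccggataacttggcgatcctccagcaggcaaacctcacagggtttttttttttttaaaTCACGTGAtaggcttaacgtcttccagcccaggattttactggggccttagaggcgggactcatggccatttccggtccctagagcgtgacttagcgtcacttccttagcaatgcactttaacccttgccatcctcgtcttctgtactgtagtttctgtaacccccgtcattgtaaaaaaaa
Ctsa: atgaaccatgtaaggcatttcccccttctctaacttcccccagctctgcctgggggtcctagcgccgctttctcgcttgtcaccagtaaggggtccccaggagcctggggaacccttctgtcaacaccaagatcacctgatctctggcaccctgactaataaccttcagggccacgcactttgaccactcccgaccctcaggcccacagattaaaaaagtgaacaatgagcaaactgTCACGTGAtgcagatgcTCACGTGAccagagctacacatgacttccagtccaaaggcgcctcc
The word began 99 bases before the start of Ctsd, 72 before Atg3 and 132 before Atp6v1a, and Ctsa held 2 copies, the first beginning 13 bases before the start. The log2 differences of the 6 genes were 0.17 for Ctsd, -0.10 for Atg3, -0.17 for Atp6v1a, 0.11 for Ctsa, 0.10 for Atp6v0d1 and 0.03 for Mcoln1. Without siFAM129B library 4 they were 0.06, -0.12, 0.01, -0.02, -0.03 and -0.06 in the same order. With all 8 libraries 4 of the 6 lay above 0, as did 24 of the 28 matched genes without the word. Without that library the counts were 2 of 6 and 19 of 28. A match of letters is a description of the window and not evidence of binding.

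All 7 lysosomal hydrolases lay above 0 with all 8 libraries (median log2 difference 0.13), but Ctsl did not when libraries were rescaled to an equal sum or quantile normalized. In limma with array weights, 4 of 7 lay above 0, with Ctsa, Ctsl and Neu1 below. Without siFAM129B library 4, 4 of 7 remained above 0 (median 0.06). Ctsd, the main aspartic protease of the lysosome, stood at 279.8, 283, 262 and 255 FPKM in siNC and at 278, 289, 275 and 382 FPKM in siFAM129B. Library 2 was just above the highest siNC value, library 4 far above it, and the other siFAM129B libraries were inside the siNC range. The log2 difference was 0.17 ± 0.12 (SE; limma adjusted p = 0.784), and 0.06 ± 0.05 without library 4. Ctsb, a cysteine protease, had 322, 330.2, 303 and 299 FPKM in siNC and 347, 334, 319 and 378 FPKM in siFAM129B. Only siFAM129B library 3 fell inside the siNC range. Its difference was 0.13 ± 0.09 (SE) with all libraries and 0.09 ± 0.05 without library 4.

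Ctsl, the cysteine protease known as an atrophy-induced gene of muscle, had 332, 328, 309 and 305 FPKM in siNC and 305, 319.7, 306 and 361 FPKM in siFAM129B. These ranges overlapped, and the log2 difference was 0.02 ± 0.09 (SE). Without library 4 it was -0.04 ± 0.05. Ctsz, a carboxypeptidase, had 100.5, 106, 93.8 and 88.3 FPKM in siNC and 111, 104, 98.3 and 159 FPKM in siFAM129B. Hexa, a subunit of the enzyme that degrades GM2 ganglioside, had 58.8, 64.3, 61.8 and 57.8 FPKM in siNC and 65.2, 66.7, 62.4 and 94.3 FPKM in siFAM129B. For both genes library 4 was far the highest: the log2 differences of 0.26 ± 0.15 for Ctsz and 0.23 ± 0.13 for Hexa (SE) became 0.11 ± 0.07 and 0.09 ± 0.05 without it. Ctsa, which protects other lysosomal enzymes, averaged 50.1 FPKM in siNC and 54.7 FPKM in siFAM129B, with 49.4 FPKM in libraries 1 to 3; its log2 difference of 0.11 turned to -0.02 without library 4. Neu1, a sialidase, averaged 4.37 and 4.80 FPKM, with 4.16 FPKM in libraries 1 to 3; its log2 difference of 0.09 turned to -0.05.

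Lamp1 and Lamp2 encode the glycoproteins that line the lysosomal membrane, and their values parted in siFAM129B library 4. Lamp1 stood at 344, 348, 359 and 356 FPKM in siNC and at 359.8, 361, 369 and 375 FPKM in siFAM129B. The groups did not overlap, but the gap was narrow, with a log2 difference of 0.06 ± 0.07 (SE; limma adjusted p = 0.797), and 0.05 ± 0.04 without library 4. The sign of Lamp1 turned when libraries were rescaled to an equal sum (-0.01) or quantile normalized (-0.06). Lamp2, whose product is needed for fusion and for chaperone-mediated autophagy, stood at 148, 145, 137 and 144 FPKM in siNC and at 139, 138, 139.7 and 54.2 FPKM in siFAM129B. Libraries 1 to 3 lay inside the siNC range and library 4 held 39.1% of their mean. Its log2 difference of -0.39 ± 0.28 (SE; limma adjusted p = 0.784) was -0.05 ± 0.04 without library 4. Mcoln1, the lysosomal calcium channel, had 23.8, 24.0, 30.3 and 25.6 FPKM in siNC and 24.7, 24.2, 25.5 and 31.9 FPKM in siFAM129B. Its groups overlapped, with a log2 difference of 0.03 ± 0.12 (SE) that turned to -0.06 ± 0.08 without library 4.

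**Figure D3:**
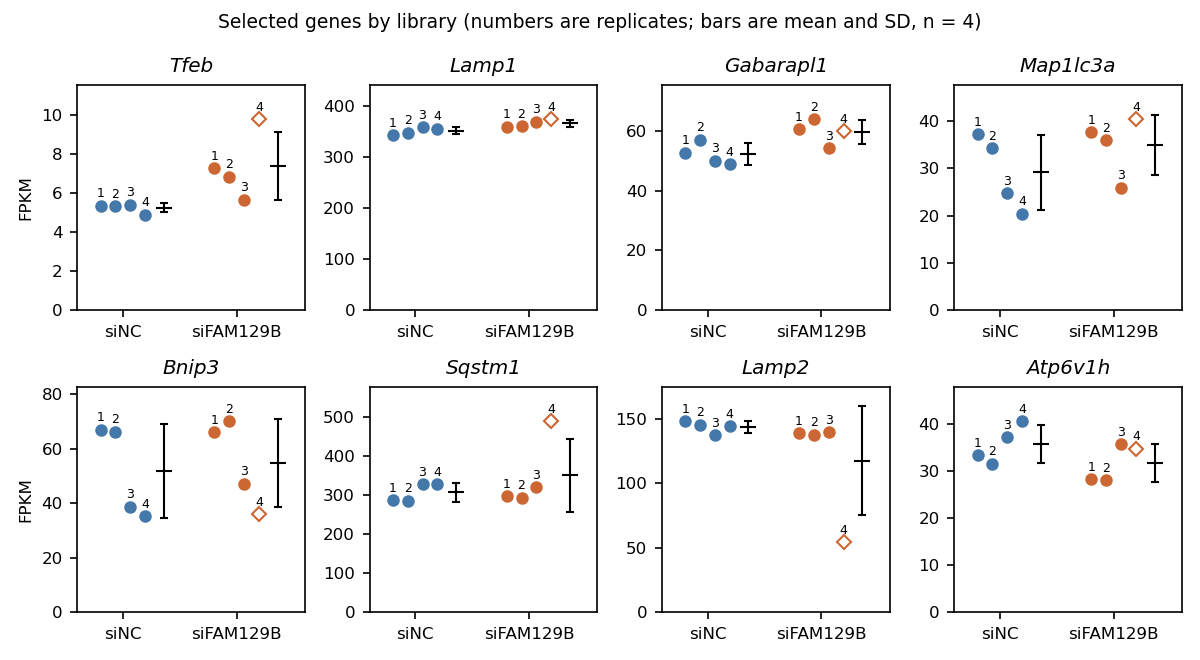
FPKM by library for 8 of the genes; numbers above the points are replicate numbers, open diamonds are siFAM129B library 4, and black bars give the mean and SD (n = 4). Tfeb and Lamp1 are the 2 genes with no overlap; in Lamp2 and Sqstm1 the diamond is apart from the other points; in Bnip3 and Map1lc3a, siNC replicates 1 and 2 are above 3 and 4.

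The proton pump that acidifies the lysosome was represented by 3 subunits. Atp6v1h, a regulatory subunit of the cytosolic sector, stood at 33.3, 31.5, 37.1 and 40.5 FPKM in siNC and at 28.3, 28.0, 35.6 and 34.7 FPKM in siFAM129B. Libraries 1 and 2 of siFAM129B were below the whole siNC range, and libraries 3 and 4 inside it. The log2 difference was -0.17 ± 0.12 (SE; limma adjusted p = 0.784) with all libraries and -0.21 ± 0.11 without library 4, so its sign did not rest on that library. Atp6v1a, the catalytic subunit, averaged 54.6 ± 3.10 FPKM in siNC and 54.9 ± 2.94 FPKM in siFAM129B libraries 1 to 3, and 33.0 FPKM in library 4. Atp6v0d1, a membrane sector subunit, averaged 38.2 ± 2.98 FPKM in siNC and 37.4 ± 1.51 FPKM in siFAM129B libraries 1 to 3, and 53.2 FPKM in library 4. Vps11 and Vps18, core subunits of the HOPS complex that tethers vesicles to lysosomes, averaged 15.9 and 10.0 FPKM in siNC, and 16.4 and 9.89 FPKM in siFAM129B libraries 1 to 3. Their log2 differences were 0.10 ± 0.09 and 0.12 ± 0.15 (SE) with all libraries, and 0.04 and -0.02 without library 4.

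The 5 ATG8 genes encode the ubiquitin-like proteins that are lipidated on autophagosomes, and all 5 lay above 0 with all 8 libraries (median log2 difference 0.18). Gabarap turned negative after equal-sum scaling (-0.04) or quantile normalization (-0.06), and Gabarapl2 after equal-sum scaling (-0.00). With length trends removed 3 of 5 lay above 0, Gabarap and Gabarapl2 being below. With length and GC trends removed 4 of 5 did, Gabarap being below. Without siFAM129B library 4 the median was 0.09 and 4 of 5 lay above 0, Gabarap being at -0.03. With siNC library 4 left out instead, the median was 0.10 and all 5 lay above 0. Gabarapl1, a FoxO-responsive member in muscle, stood at 52.7, 57.1, 50.1 and 48.9 FPKM in siNC and at 60.7, 64.1, 54.3 and 59.8 FPKM in siFAM129B. siFAM129B library 3 alone lay within the siNC range, and library 4 was no outlier here, at 100.3% of the mean of libraries 1 to 3. Its groups differed by 0.19 ± 0.09 on the log2 scale (SE; limma, unadjusted p = 0.0558, adjusted p = 0.784), and 0.19 ± 0.07 without library 4 (limma, unadjusted p = 0.0325, adjusted p = 0.87).

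Map1lc3b, which encodes the LC3 protein used as a marker of autophagosomes, stood at 57.4, 57.6, 54.1 and 45.1 FPKM in siNC and at 58.0, 58.2, 54.4 and 72.7 FPKM in siFAM129B. Libraries 1 to 3 of siFAM129B covered nearly the same values as siNC libraries 1 to 3, siNC library 4 was the lowest and siFAM129B library 4 the highest. Its log2 difference was 0.18 ± 0.12 (SE), and 0.09 ± 0.09 without library 4. Map1lc3a, its close paralog, stood at 37.3, 34.3, 24.8 and 20.4 FPKM in siNC and at 37.6, 35.9, 25.9 and 40.5 FPKM in siFAM129B. Here siNC libraries 3 and 4 and siFAM129B library 3 were low and siFAM129B library 4 was not; the difference was 0.27 ± 0.20 (SE; limma adjusted p = 0.784), and 0.20 ± 0.21 without library 4. Gabarap, the most abundant of the 5, was even across siNC at 202, 201, 198 and 198 FPKM, and stood at 195, 204, 189 and 227 FPKM in siFAM129B. Gabarapl2 had 34.4, 32.0, 36.5 and 34.5 FPKM in siNC and 35.3, 36.6, 36.5 and 34.8 FPKM in siFAM129B. Both overlapped, with log2 differences of 0.03 ± 0.08 and 0.06 ± 0.08 (SE), and of -0.03 ± 0.04 and 0.07 ± 0.06 without library 4.

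The cargo receptors divided 2 above and 2 below 0. Sqstm1 encodes p62, which links ubiquitinated cargo to ATG8 proteins and is itself consumed. Its values were 288, 286, 328 and 328 FPKM in siNC and 298, 294, 321 and 489 FPKM in siFAM129B. Libraries 1 to 3 of siFAM129B lay within the siNC range and library 4 at 161% of their mean; the log2 difference of 0.16 ± 0.16 (SE; limma adjusted p = 0.784) was -0.01 ± 0.07 without it. Nbr1, a related receptor, was lowest in that library, with 38.1, 37.4, 30.2 and 27.7 FPKM in siNC and 37.7, 35.0, 32.3 and 21.5 FPKM in siFAM129B (log2 difference -0.09 ± 0.18, and 0.08 ± 0.12 without library 4; SE).

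Bnip3 and Bnip3l encode receptors for mitochondria that are induced by hypoxia and, in atrophying muscle, by FoxO3. Bnip3 stood at 67.0, 66.4, 38.8 and 35.2 FPKM in siNC and at 66.1, 70.2, 47.3 and 36.0 FPKM in siFAM129B. Replicates 1 and 2 were high and 3 and 4 low in each group, and the groups overlapped over most of their range. The log2 difference was 0.09 ± 0.27 (SE; limma adjusted p = 0.907) and 0.27 ± 0.25 without library 4. Bnip3l had 61.5, 58.7, 46.4 and 48.4 FPKM in siNC and 56.6, 55.9, 53.1 and 37.0 FPKM in siFAM129B, with a log2 difference of -0.09 ± 0.15 (SE), and 0.05 ± 0.10 without library 4.

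Among the initiation and lipid kinase genes 5 of 7 lay above 0, with and without siFAM129B library 4. Ulk1, the kinase that starts autophagy, stood at 16.9, 17.2, 14.2 and 12.4 FPKM in siNC and at 19.4, 18.3, 15.3 and 13.9 FPKM in siFAM129B. Libraries 1 and 2 of siFAM129B were above the siNC range and 3 and 4 inside it. Its log2 difference was 0.13 ± 0.14 (SE; limma adjusted p = 0.784), and 0.21 ± 0.12 without library 4. Becn1, the scaffold of the lipid kinase complex, was even in siNC at 33.5, 34.6, 34.4 and 35.0 FPKM, and had 36.8, 37.1, 34.3 and 28.7 FPKM in siFAM129B. Libraries 1 and 2 of siFAM129B were above the siNC range, library 3 inside it and library 4 below it, and the log2 difference was -0.01 ± 0.10 (SE), or 0.07 ± 0.05 without library 4. The kinase Ulk2, a paralog of Ulk1, averaged 18.6 FPKM in siNC and 16.2 FPKM in siFAM129B. Atg101, a subunit of the Ulk complex, averaged 20.7 and 24.1 FPKM. Their library 4 values of 10.5 and 34.8 FPKM lay on opposite sides of all the others, and without that library the log2 differences of -0.22 and 0.18 were -0.03 and -0.00. Pik3c3, the lipid kinase itself, averaged 9.34 and 9.75 FPKM, and its partners Atg14 and Uvrag averaged 4.39 and 13.96 FPKM in siNC and 4.56 and 14.8 FPKM in siFAM129B. The log2 differences of Pik3c3, Atg14 and Uvrag were 0.06, 0.04 and 0.08, and without library 4 they were 0.04, 0.13 and 0.06.

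The 10 membrane and conjugation genes spanned log2 differences from -0.10 to 0.15, with 6 above 0, and from -0.12 to 0.14 without siFAM129B library 4, with 7 above 0. Wipi2, which reads the lipid made by Pik3c3 and recruits Atg16l1, stood at 28.7, 28.7, 28.8 and 26.2 FPKM in siNC and at 30.7, 30.0, 28.5 and 34.5 FPKM in siFAM129B. Library 3 of siFAM129B was inside the siNC range and the other libraries above it, with a log2 difference of 0.13 ± 0.09 (SE; limma adjusted p = 0.784), and 0.08 ± 0.06 without library 4. Wipi1, its paralog, averaged 41.7 ± 5.93 FPKM in siNC and 44.7 ± 3.69 FPKM in siFAM129B, a log2 difference of 0.10 ± 0.12 (SE), and 0.14 ± 0.11 without library 4. The lipid transfer protein Atg2a and the scramblase Atg9a had log2 differences of 0.15 ± 0.11 and 0.12 ± 0.10 (SE), which were 0.09 and 0.05 without library 4. The protease Atg4b, which trims ATG8 proteins, and Atg7, the E1-like enzyme of conjugation, had 0.09 ± 0.11 and 0.10 ± 0.11 (SE), and 0.01 each without library 4. Atg3, the E2-like enzyme, averaged 29.6 ± 2.10 FPKM in siNC and 27.6 ± 1.12 FPKM in siFAM129B, a log2 difference of -0.10 ± 0.08 (SE), and -0.12 ± 0.06 without library 4. Atg5, Atg12 and Atg16l1, which together form the ligase that places ATG8 proteins on lipid, had -0.08 ± 0.09, -0.03 ± 0.11 and -0.01 ± 0.11 (SE). Without library 4 these were -0.08, 0.04 and -0.07, so the sign of Atg12 turned.

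Across the 43 genes, the shift of siFAM129B library 4 went with base composition. In that library 26 of the 43 had their highest value of all 8 libraries and 8 their lowest, beside 39.9% and 37.7% of all tested genes. The shift of library 4 from the mean of siFAM129B libraries 1 to 3 ran from -1.34 for Lamp2 to 0.74 for Atg101 on the log2(FPKM + 1) scale. Across the 43 genes it went with the GC content of the transcripts (Spearman rho 0.70, Pearson r 0.66). It went less with gene length, as implied by reads and FPKM (rho -0.21). Across tested genes with a value the rho was 0.58 for GC content (10975 genes) and -0.60 for length (11024 genes). These correlations are descriptions over genes that share 1 library, and genes are not independent replicates. Lamp2 had the lowest GC content of the 43, at 40.9%, and Map1lc3a the highest, at 63.1%. Of the 21 genes above the median GC content of 52.6%, all 21 had a log2 difference above 0 with all 8 libraries, and 14 did without library 4. Of the other 22, 11 did with all libraries and 14 without library 4. These counts have no share of all tested genes of like GC content beside them. With trends on length and GC content removed from every library, an alternative chosen with the data in view, 33 of the 43 lay above 0 against 52.0% of all tested genes, the median was 0.05, and none of the 43 passed. The part of base composition in the differences of single genes was not tested.

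**Figure D4:**
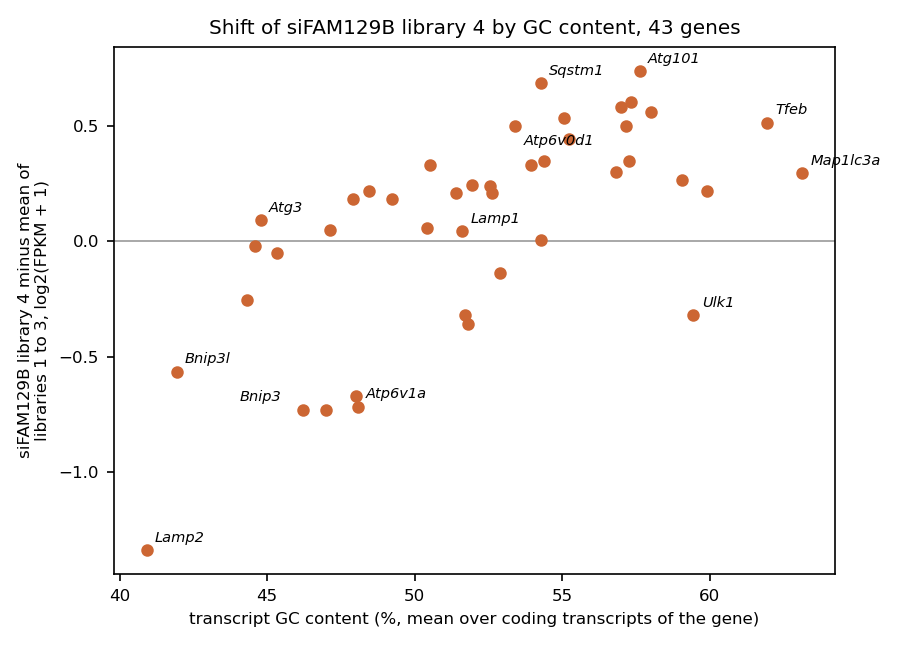
Shift of siFAM129B library 4 from the mean of siFAM129B libraries 1 to 3, on log2(FPKM + 1), against transcript GC content, for the 43 genes; each point is a gene and some are named. Points run upward from Lamp2 at 40.9% GC and -1.34 to genes above 52.6% GC, of which 19 of 21 lie above 0. Ulk1 at 59.4% GC and -0.32 is an exception. Of the other 22 genes, 11 lie above 0.

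Values also differed by replicate number in some of the 43 genes. In 9 of them (20.9%), Gabarapl1, Nbr1, Bnip3, Bnip3l, Ulk1, Ulk2, Atg14, Wipi1 and Atg12, replicates 1 and 2 were above replicates 3 and 4 in each group, as in 14.1% of all tested genes. In 8 (18.6%), Sqstm1, Atg3, Neu1, Lamp1, Mcoln1, Atp6v0d1, Atp6v1h and Vps18, they were below in each group, as in 14% of all tested genes. On the log2 scale the spread was widest for Bnip3. Its siNC mean was 66.7 FPKM in replicates 1 and 2 and 37.0 FPKM in replicates 3 and 4. The labels name no batch, so what the replicate numbers share was not tested. With this split as a covariate, none of the 43 and 0% of all tested genes passed in limma (smallest adjusted p of the 43 0.673), and 3 of the 43, Tfeb, Gabarapl1 and Atp6v1h, had an unadjusted p under 0.05 beside 4.06% of all. With siFAM129B library 4 also left out, none of the 43 passed, beside 0.0454% of all tested genes. In that fit 5 of the 43 had an unadjusted p under 0.05, Tfeb, Gabarapl1, Ulk1 and Bnip3 above 0 and Atp6v1h below, a share close to the 11.3% of all tested genes.

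Further genes of the pathway were taken from 7 lists of 143 genes, of which 142 were in the table and 130 were tested. None passed in limma, with or without siFAM129B library 4. The median log2 difference of the 130 was 0.01, with 72 above 0 (55.4%, against 50.6% of all tested genes), and the same number lay above 0 without library 4. By list, those above 0 were 11 of 18 autophagy core genes, 6 of 14 receptors, 6 of 11 fusion and tethering genes, 20 of 34 hydrolases, 13 of 23 membrane and sorting proteins, 11 of 15 proton pump subunits and 5 of 15 regulators of Tfeb. Without library 4 the counts were 11, 7, 5, 28, 12, 3 and 6 in the same order. The proton pump and hydrolase lists thus shifted in opposite directions when that library was left out.

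Of the 130 tested genes of these lists, 3 had an unadjusted limma p under 0.05, beside 2.49% of all tested genes in either direction. Npc2 and Naglu were among the 3, and both lay above 0. Npc2, which carries cholesterol out of lysosomes, stood at 153, 149, 137 and 128 FPKM in siNC and at 160.2, 161, 155 and 204 FPKM in siFAM129B. The groups did not overlap, with a log2 difference of 0.25 ± 0.11 (SE; limma adjusted p = 0.784), and 0.16 ± 0.06 without library 4. With siFAM129B higher, 2 of the 130 genes had no overlap, beside 1.9% of all tested genes. Without library 4, 3 had no overlap with siFAM129B higher and 1 with it lower, beside 3.26% and 2.58% of all tested genes. In that fit 5 of the 130 had an unadjusted limma p under 0.05, beside 4.31% in either direction. Naglu, which degrades heparan sulfate, averaged 14.2 ± 0.580 FPKM in siNC and 17.4 ± 2.64 FPKM in siFAM129B (SD, n = 4; log2 difference 0.27 ± 0.11, SE, and 0.18 ± 0.07 without library 4). Ctsh, a cathepsin, had 0.39 ± 0.18 (SE), and 0.36 ± 0.19 without library 4, at 4.297 ± 1.36 FPKM in siNC and 5.78 ± 0.621 FPKM in siFAM129B. In the remaining lists the smallest p belonged to Ulk3 (log2 difference 0.21 ± 0.10, SE), a kinase related to Ulk1, Snap29 (-0.20 ± 0.11), a SNARE of autophagosome fusion, Optn (0.12 ± 0.09), a receptor for ubiquitinated cargo, Lamtor1 (0.31 ± 0.18), an anchor of mTORC1 on the lysosome, and Atp6v1f (0.20 ± 0.19), a pump subunit. Without library 4 the values were 0.17 for Ulk3, -0.16 for Snap29, 0.15 for Optn, 0.13 for Lamtor1 and 0.02 for Atp6v1f, so those of Lamtor1 and Atp6v1f rested largely on that library.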

How the data were processed

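Poly(A) RNA of 8 C2C12 samples (4 siNC, 4 siFAM129B) was sequenced; per the labels' protocols, libraries started from 1.3 µg of total RNA cut to fragments of 300 to 350 bp. The authors deposited an FPKM value for each gene in each library. The genome build is mm9 per the submitters' processing notes; aligner, counter and annotation: not given in the sources used here. Columns marked N match the siNC titles and descriptions; columns marked F match siFAM129B by title alone. Of 21879 genes, 5400 were at 0 throughout. For 16478 of the other 16479, the 8 FPKM values, once scaled by relative depth, stood in the ratio of integers (tolerance 0.001 of a read); the smallest integers were taken as reads and are lower bounds.

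Genes averaging 1 FPKM or more (11025) entered limma 3.58.1 under R 4.3.3 as log2(FPKM + 1), with trended variance; p-values were adjusted by Benjamini-Hochberg over all 11025 and the threshold was 0.05. The log scale understates the fold of low genes. The fit was tested on simulated data with planted changes. GC content came from GENCODE M21 transcripts (99.5% of tested genes). Gene length was not taken from an annotation. It was the length implied by the FPKM, the recovered reads and their library totals. Another 21 fits were run, 2 of them chosen with the data in view. The 43 genes, the lists and the tests were chosen with earlier results of these data known. Values per library are given for 20 listed genes, for genes with no overlap and for the 10 with the smallest p. No 2 libraries of a group agreed within sampling noise (chi-square per gene at least 5.58). The values of 1 gene of the further lists are not reported here.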

Additional observations from a re-analysis of the deposited data

Results flagged for a closer look

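In 88 groups of 4 libraries (the 43 genes and Fam129b in each group), 14 had a library far from the other 3 by more than Dixon's 95% critical value, where chance flags about 1 in 20. Of the 14, 11 were siFAM129B library 4. It stood apart on the high side for Sqstm1 (489 FPKM), Atg16l1 (16.5 FPKM), Ctsa (70.4 FPKM), Ctsd (382 FPKM), Hexa (94.3 FPKM), Mcoln1 (31.9 FPKM), Atp6v0d1 (53.2 FPKM), Vps11 (19.6 FPKM) and Fam129b (128 FPKM). On the low side it stood apart for Atg14 (3.58 FPKM) and Lamp2 (54.2 FPKM). The other 3 were siNC library 4, low for Wipi2 (26.2 FPKM) and Tfeb (4.91 FPKM) and high for Atg5 (20.5 FPKM).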

How the results depend on the processing

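In none of 21 other fits did any of the 43 genes pass, the smallest adjusted p among them being 0.264 in limma with array weights. The median of the 43 lay between 0.03 and 0.12, and between 25 and 34 genes lay above 0. The count of all tested genes called was 0 except for 1 after quantile normalization, 2 with array weights, 5 with the replicate split as a covariate and siFAM129B library 4 left out, and 0 to 1 with a library left out, the 1 being without siFAM129B library 4. Fam129b, not called with all libraries (limma adjusted p = 0.784), was called after quantile normalization (log2 difference -0.86), with array weights (-0.89) and with the split covariate and library 4 left out (-0.90); with 1 library left out it ranged from -0.91 to -0.73. The cause was not tested. Tfeb kept its sign in all 21, from 0.24 to 0.51, with adjusted p from 0.264 to 0.98 in limma.

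Of 23 genes given by library, 13 kept their sign throughout and 10 did not, none past the threshold. After equal-sum scaling the values were -0.0414 for Gabarap, -0.00414 for Gabarapl2, -0.0493 for Ctsl, -0.00758 for Lamp1 and -0.0339 for Mcoln1. After quantile normalization the values were -0.0635 for Gabarap, -0.0853 for Ctsl and -0.0641 for Lamp1. With array weights the values were -0.00818 for Sqstm1, 0.0259 for Nbr1, 0.00921 for Bnip3l, 0.0932 for Becn1, -0.0318 for Ctsl and -0.0495 for Mcoln1. With the split covariate and siFAM129B library 4 left out the values were -0.0352 for Gabarap, 0.0298 for Nbr1, 0.00866 for Bnip3l, 0.0621 for Becn1, -0.0499 for Ctsl and -0.0319 for Mcoln1. With length trends removed the values were -0.0892 for Gabarap, -0.0709 for Gabarapl2 and -0.0106 for Mcoln1. With length and GC trends removed the values were -0.0741 for Gabarap, 0.0286 for Nbr1, 0.0712 for Bnip3l and -0.10 for Mcoln1. Leaving out 1 library gave ranges of -0.0277 to 0.0598 for Gabarap, -0.0131 to 0.232 for Sqstm1, -0.182 to 0.0784 for Nbr1, -0.0704 to 0.274 for Bnip3, -0.159 to 0.0474 for Bnip3l, -0.0529 to 0.0665 for Becn1, -0.0376 to 0.044 for Ctsl and -0.0569 to 0.105 for Mcoln1. Same-numbered libraries of the groups correlated in their deviations from the group means at 0.53, 0.25, 0.04 and 0.12 for numbers 1 to 4. Different numbers gave 0.47 (siNC 1 with siFAM129B 2), 0.36 (2 with 1), 0.34 (3 with 4) and 0.39 (4 with 3). Between numbers 1 and 2 of 1 group and 3 and 4 of the other, values ran from -0.46 to -0.07. The numbers were therefore not taken to pair the samples, beyond the split of 1 and 2 against 3 and 4. A fit with the replicate number as a block called 0 genes, with a median of the 43 of 0.09, 32 above 0 and Fam129b at -0.78. At least 384 reads stood behind each value of the 43 genes; how far depth limits the differences was not tested.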
